A study of Homo sapiens with 6 samples.

Results

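The human mitochondrial genome carries its own small set of genes, and the RNAs made from them were described across RNA-seq libraries of MHCC97H, a long-established cell line from human hepatocellular carcinoma. The members were every row of the deposited gene table whose name starts with MT-, which gave 37 of 58825 genes: 13 mRNAs, 2 rRNAs and 22 tRNAs. The rule uses names and no measured value, though this set of genes was taken up with earlier results of these data known. There were 6 libraries. The 3 labelled shPTBP1 1, 2 and 3 have the genotype PTBP1 Knockdown, and the 3 labelled shControl 1, 2 and 3 have the genotype WT, with shControl naming the control hairpin. All 6 share the MHCC97H background, and the labels give no hairpin sequence, clone, culture day or harvest time. Nothing says that equal numbers mark separate cultures, so p-values measure the spread between these libraries, which may be technical. The series was made to find splicing events tied to PTBP1, an RNA-binding splicing regulator of nuclear transcripts. The comparison here asks how the RNAs of the mitochondrial genome differed between shPTBP1 and shControl libraries.

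As background, mitochondrial DNA is a circle whose strands are each copied into long transcripts from promoters in the non-coding region. The transcript of the heavy strand holds both rRNAs, all mRNAs except MT-ND6 and most tRNAs, while that of the light strand holds MT-ND6 and the remaining tRNAs. tRNA sequences punctuate these transcripts, and RNase P and ELAC2 cut at the tRNA ends, which frees the mRNAs and rRNAs between them. The mRNAs encode core subunits of respiratory complexes I, III and IV and of ATP synthase, and the tRNAs and rRNAs serve the mitochondrial ribosome that translates them. Liver cells are rich in mitochondria and rely on these complexes for ATP, and the remaining subunits come from nuclear genes. Mitochondrial mRNAs get a short poly(A) tail after they are cut free, and for some of them that tail also completes the stop codon. Libraries here were made from RNA selected on oligo(dT) beads, so the values describe what that selection kept.

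All 37 genes matched a transcript of the same length in GENCODE release 29, from which the sequences below were taken (GRCh38, the build hg38 of the deposited processing). tRNA genes are shown because the largest difference among the 37 genes and the contrast between strands lie in them. Capitals mark the anticodon in the gene's own 5′ to 3′ sense. MT-TI (isoleucine) and MT-TG (glycine) lie on the heavy-strand transcript, and MT-TE (glutamate), MT-TN (asparagine) and MT-TQ (glutamine) on the light-strand transcript.
MT-TI, chrMT:4263-4331, + strand: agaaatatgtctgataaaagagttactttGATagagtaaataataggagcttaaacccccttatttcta
MT-TG, chrMT:9991-10058, + strand: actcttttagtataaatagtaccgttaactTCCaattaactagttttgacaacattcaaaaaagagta
MT-TE, chrMT:14674-14742, - strand: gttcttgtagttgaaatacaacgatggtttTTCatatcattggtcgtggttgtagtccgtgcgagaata
MT-TN, chrMT:5657-5729, - strand: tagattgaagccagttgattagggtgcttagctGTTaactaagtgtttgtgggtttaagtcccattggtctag
MT-TQ, chrMT:4329-4400, - strand: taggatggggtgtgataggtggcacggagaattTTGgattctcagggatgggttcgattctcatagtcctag
MT-TI and MT-TQ share 3 bases (4329 to 4331) on opposite strands, so the last bases of MT-TI are also the last bases of MT-TQ read the other way.

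The coding ends of some mRNAs are shown because the poly(A) tail can complete a stop codon there. Each line gives the last 15 coding bases of the annotation, with the stop bases in capitals.
MT-ND1, chrMT:4248-4262, + strand: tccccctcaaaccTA
MT-CO3, chrMT:9976-9990, + strand: attgatgagggtctT
MT-ND4, chrMT:12123-12137, + strand: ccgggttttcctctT
MT-CO2, chrMT:8255-8269, + strand: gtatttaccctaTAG
MT-CO1, chrMT:7431-7445, + strand: tacataaaatctAGA
MT-ND6, chrMT:14149-14163, - strand: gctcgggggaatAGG
Of the 13 mRNAs, 6 end in an incomplete stop codon in the annotation: MT-ND1 with TA, and MT-ND2, MT-CO3, MT-ND3, MT-ND4 and MT-CYB with T alone. MT-ATP8 and MT-ATP6 overlap by 46 bases and are read in different frames, and their shared run is shown with the start codon of MT-ATP6 and the stop codon of MT-ATP8 in capitals.
MT-ATP8 and MT-ATP6, chrMT:8527-8572, + strand: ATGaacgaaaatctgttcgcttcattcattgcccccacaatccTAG
MT-ND4L and MT-ND4 share 7 bases (10760 to 10766), and MT-TC with MT-TY and MT-ATP6 with MT-CO3 share 1 base each. Counting by strand is not stated in the sources used here, although the library kit marks strand. How reads over a shared base were assigned is therefore not known. If strand was not used, genes of one strand may also hold reads of the other strand's transcript. Values given below by strand, those of MT-ND6 and the tRNAs among them, carry that limit.

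Facts of the libraries that touch these values are few. Summed counts per library were between 73728714 and 79955243 in shPTBP1 and between 68704509 and 85317970 in shControl. PTBP1 itself had 17.3, 16.9 and 18.0 FPKM (fragments per kilobase per 1e6 fragments) in shPTBP1 1, 2 and 3, against 21.2, 16.4 and 27.4 FPKM in shControl 1, 2 and 3. The groups overlapped (adjusted p = 0.953 in edgeR for a log2 difference of -0.29 ± 0.18, standard error or SE), so a direction given here is between libraries as labelled. Red-cell transcripts split the libraries by number. HBB, the beta chain of adult hemoglobin, had 535, 473 and 0.583 counts per 1e6 (CPM of the library total) in shPTBP1 1, 2 and 3, against 807, 513 and 0.579 CPM in shControl 1, 2 and 3. The 8 red-cell markers summed to 1.13 to 843 CPM in shPTBP1, against 1.35 to 1273 CPM in shControl. Neutrophil and monocyte markers (7 genes) summed to 0.217 to 20.6 CPM in shPTBP1, against 0.174 to 32.6 CPM in shControl, and they split the same way. Of 11 hepatocyte markers, 3 (KRT8, KRT18 and SERPINA1) reached 1 CPM in any library, and ALB, AFP, APOB, TTR and FGB were at 0 in all 6. SERPINA1 did so in shControl 1 alone (1.31 CPM), and it stood at 0 CPM in shPTBP1 3 and 0.0434 CPM in shControl 3. The part of the red-cell and white-cell transcripts in the results below was not tested. The libraries numbered 1 and 2 hold these transcripts, and those numbered 3 hold almost none. For the mRNA and rRNA shares, the mRNAs and the tRNAs, values are also given for each of these sets. For the tRNA share a difference is given for the libraries numbered 3 only.

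Mitochondrial RNA took a large share of every library. The 13 mRNAs took 7.84%, 6.77% and 7.69% of all counts in shPTBP1 1, 2 and 3, against 5.77%, 5.42% and 7.66% in shControl 1, 2 and 3. shControl 3 thus lay among the shPTBP1 libraries, and shControl 1 and 2 lay below all 3 of them. The mean share was 7.43% ± 0.580 in shPTBP1 and 6.28% ± 1.21 in shControl (SD, n = 3 each, exact permutation test on the log2 share, two-sided p = 0.2). With 3 against 3 libraries that test cannot give a p below 0.1. In bulk RNA a difference in the make-up of the cells and a difference in RNA per cell cannot be told apart.

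In the rRNA share, too, shControl 3 lay among the shPTBP1 libraries. MT-RNR1 and MT-RNR2 together took 1.18%, 1.11% and 1.03% of counts in shPTBP1 1, 2 and 3, against 0.696%, 0.667% and 1.06% in shControl 1, 2 and 3. The difference on the log2 scale was 0.49 for the rRNAs and 0.26 for the mRNAs (exact permutation p = 0.2 for each). Without shControl 3 these differences were 0.70 for the rRNAs and 0.41 for the mRNAs, and with the libraries numbered 1 and 2 alone they were 0.75 and 0.38. Between the single libraries numbered 3 they were -0.04 for the rRNAs and 0.0040 for the mRNAs. The 22 tRNAs took far less, 0.0429%, 0.0429% and 0.0452% in shPTBP1, against 0.0410%, 0.0386% and 0.0417% in shControl. Every shPTBP1 library was higher, with a log2 difference of 0.11 (exact permutation p = 0.1, the smallest this design allows). Between the single libraries numbered 3 the log2 difference in the tRNA share was 0.12. Without MT-TI the other 21 tRNAs took 0.0402%, 0.0400% and 0.0427% in shPTBP1, against 0.0402%, 0.0378% and 0.0414% in shControl, which overlapped. Over the 22 tRNAs 13 had a negative log2 fold change in edgeR, with a median of -0.12. All 37 genes together took 8.58% ± 0.595 of counts in shPTBP1 and 7.13% ± 1.43 in shControl (SD, n = 3 each, exact permutation p = 0.3).

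**Figure D1:**
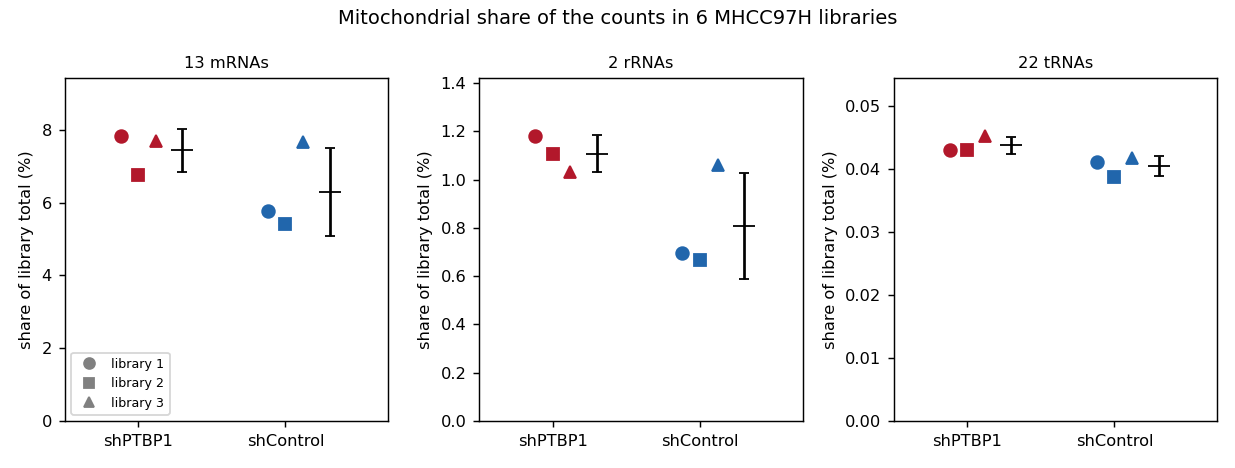
Share of each library's summed counts (percent, linear axis from 0) taken by the 13 mRNAs, the 2 rRNAs and the 22 tRNAs of the mitochondrial genome, with 1 point per library (the marker shape gives its number) and the mean with its SD beside each group of 3. In mRNAs and rRNAs shControl 3 (7.66% and 1.06%) lies with the shPTBP1 libraries, while in tRNAs every shPTBP1 library lies above every shControl library.

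Counting error was small in the mRNA and rRNA shares. Even if 4 deposited counts stood for 1 fragment, the 95% Wilson interval of any share would reach at most 0.0133 percentage points each way. For the tRNA share, however, intervals overlapped between the groups, with 0.0420% to 0.0439% in shPTBP1 2 and 0.0408% to 0.0427% in shControl 3. These intervals cover counting error only, and the spread between libraries was wider. The rRNA to mRNA ratio, which does not depend on how libraries are scaled, was 0.151, 0.164 and 0.134 in shPTBP1 1, 2 and 3, against 0.121, 0.123 and 0.138 in shControl 1, 2 and 3. shPTBP1 3 fell between shControl 2 and shControl 3, so the groups overlapped (log2 difference 0.23, exact permutation p = 0.2). Over the 9 summed shares and ratios tested in this way, p-values adjusted by the Benjamini-Hochberg method were 0.3 to 0.6.

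Each gene was then compared in a fit over all 19393 genes that passed the filter on low counts, which all 37 did. In edgeR's quasi-likelihood test, 0 of the 37 passed an adjusted p of 0.05, against 0.0309% of all genes tested. In DESeq2 1 of the 37, MT-TI, passed (1.00% of all genes did), and in limma on log2(FPKM + 1) 0 did (0.0749% of all genes did). At an unadjusted p under 0.05, edgeR held 6 of the 37 (MT-TI, MT-TE, MT-ND6, MT-RNR1, MT-RNR2 and MT-ND1), all higher in shPTBP1, where 3.58% of all genes were higher at that level and 5.69% were in either direction. A positive log2 fold change was seen in 22 of the 37, against 48.0% of all genes, and the median was 0.19, against -0.01 over all genes tested. Every shPTBP1 library lay above every shControl library in 8 of the 37 (6.49% of all genes) and below in 0 (5.46% of all genes). That count depended on the scaling: it was 6 in FPKM (5.13% of all genes) and 6 by library totals (5.31% of all genes), in both without MT-RNR2 and MT-ND5. The count at an unadjusted p under 0.05 depended on the libraries. Without shControl 3 it was 24 of the 37 in edgeR, 15 higher and 9 lower in shPTBP1, where 16.6% of all genes passed. With the libraries numbered 1 and 2 alone it was 20 of the 37, 13 higher and 7 lower, where 17.7% of all genes passed. Without shControl 2 it was 3 of the 37, all higher, where 4.18% of all genes passed. The members are cut from shared long transcripts and so are not independent of each other. The shares over all genes set beside their counts do not allow for that.

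**Figure D2:**
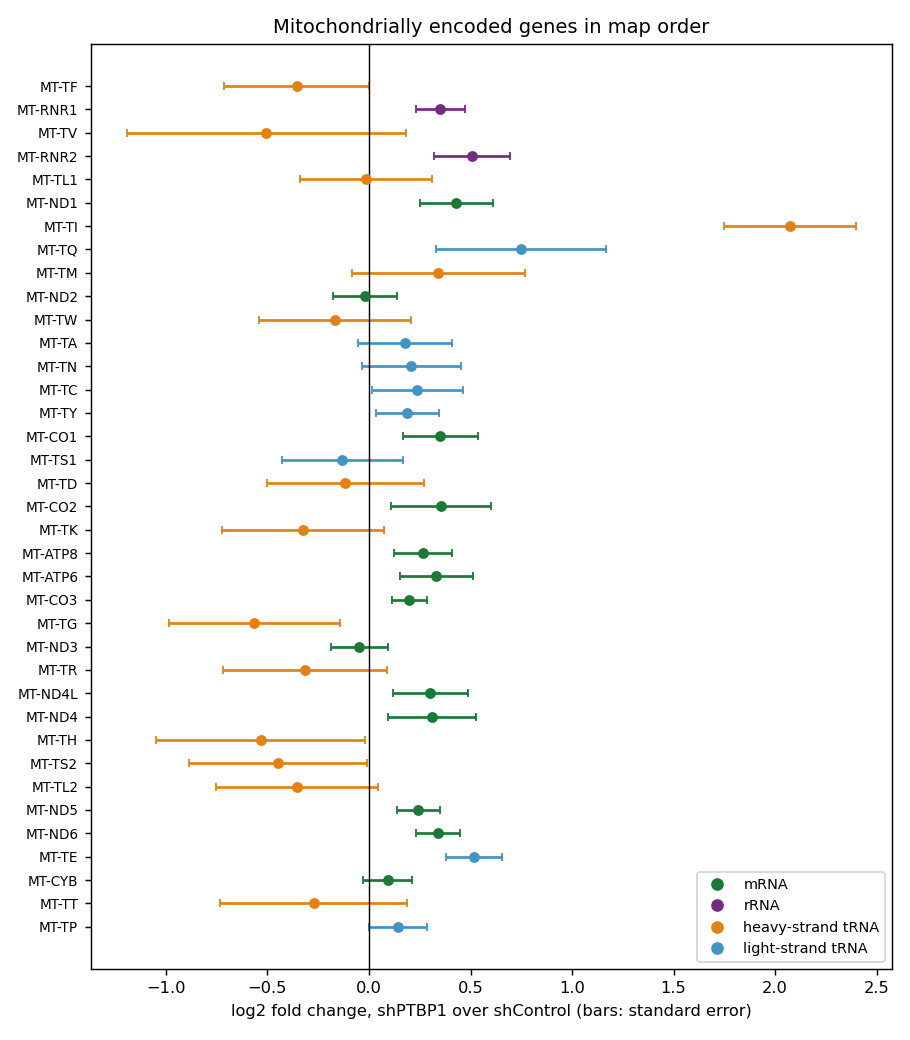
log2 fold change of shPTBP1 over shControl (x axis, edgeR) for the 37 mitochondrially encoded genes from top to bottom in the order of the genome, with bars of 1 standard error and a colour for mRNAs, rRNAs and the tRNAs of each transcript strand. MT-TI stands at 2.07, mRNAs and rRNAs lie between -0.05 and 0.51, and heavy-strand tRNAs other than MT-TI lie between -0.56 and 0.34.

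The rRNAs of the small and large mitochondrial ribosomal subunits both had higher means in shPTBP1. In MT-RNR1 every shPTBP1 library was higher on each scale used, while in MT-RNR2 this held in TMM-normalized CPM but not in FPKM or by library totals. MT-RNR2, the large-subunit 16S rRNA (chrMT:1671-3229), had 10659, 9732 and 9300.3 TMM-normalized CPM in shPTBP1 1, 2 and 3, against 6026, 5681 and 9182 CPM in shControl 1, 2 and 3. The lowest shPTBP1 library and the highest shControl library, both numbered 3, were close together and in FPKM stood the other way round (4910.2 in shPTBP1 3 and 5082 in shControl 3), and the wide gap lay between those numbered 1 and 2. The log2 fold change was 0.51 (SE 0.19, adjusted p = 0.822 in edgeR). Without shControl 3 it was 0.76 with an adjusted p of 0.0366 in edgeR, and within the libraries numbered 1 and 2 it was 0.80 with an adjusted p of 0.0724.

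MT-RNR1, the small-subunit 12S rRNA (chrMT:648-1601), had 1266, 1371 and 1258 CPM in shPTBP1 1, 2 and 3, against 973, 901 and 1178 CPM in shControl 1, 2 and 3. Again shControl 3 came nearest to the shPTBP1 libraries. Its log2 fold change was 0.35 (SE 0.12, adjusted p = 0.778 in edgeR). In FPKM, which is per length, MT-RNR2 averaged 5287 ± 398 in shPTBP1 and 3801 ± 1112 in shControl, and MT-RNR1 averaged 1134 ± 65.7 in shPTBP1 and 906 ± 140 in shControl (SD, n = 3 each). Mature mitochondrial rRNAs carry at most very short tails, so their level after oligo(dT) selection need not be their level in the cell.

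The same 6 mRNAs had the highest levels per length in both groups. MT-CO2 had the highest mean, 12346 ± 1956 FPKM in shPTBP1 and 9882 ± 3596 in shControl (SD, n = 3 each), and MT-CO1, MT-CO3, MT-ATP8, MT-ND4 and MT-ND4L followed in both. Means of these 5 ran between 7411 and 9779 FPKM in shPTBP1 and between 6147 and 8238 FPKM in shControl, and the ranges over the libraries of neighbours in this order overlapped in both groups. Below them came MT-ND2, MT-CYB, MT-ND1, MT-ND3 and MT-ATP6, at 2422 to 3266 FPKM in shPTBP1 and 1966 to 3378 FPKM in shControl. MT-ND5 and MT-ND6 were lowest among mRNAs, at 1605 ± 109 and 1640.0 ± 15.8 FPKM in shPTBP1 and 1384 ± 148 and 1324 ± 179 FPKM in shControl. MT-ATP8 is short and overlaps MT-ATP6, so the FPKM of both are less certain than the others.

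**Figure D3:**
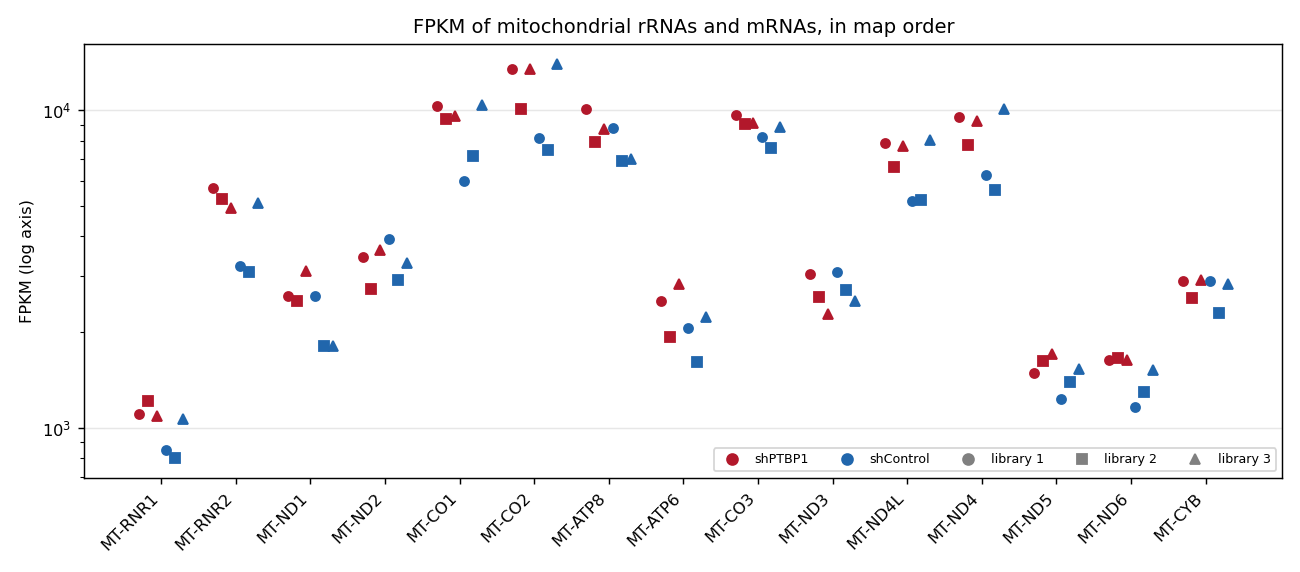
FPKM per library (log axis) of the 2 rRNAs and 13 mRNAs in the order of the genome, shPTBP1 to the left of shControl for each gene, with the marker shape giving the library number. For MT-CO1, MT-CO2, MT-ND4L and MT-ND4 shControl 3 lies above every shPTBP1 library, and shControl 1 and 2 lie below every one. MT-CO3 and MT-ND6 show no overlap between the groups.

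Complex I, the NADH dehydrogenase that feeds electrons from NADH into the chain, has 7 of its subunits encoded here. MT-ND6, the mRNA of the light-strand transcript, had 1029, 1035 and 1038 CPM in shPTBP1 1, 2 and 3, against 730.0, 800.5 and 922 CPM in shControl 1, 2 and 3. The shPTBP1 libraries were nearly equal and all above the shControl libraries, with a log2 fold change of 0.34 (SE 0.11, adjusted p = 0.725 in edgeR). MT-ND6 mRNA is known to be poorly adenylated. MT-ND1 had 2986, 2859 and 3613 CPM in shPTBP1, against 2978, 2034 and 2004 CPM in shControl. Here shControl 1 lay inside the shPTBP1 range and the other two shControl libraries below it, for a log2 fold change of 0.43 (SE 0.18, adjusted p = 0.876 in edgeR). MT-ND5 had 3231, 3504 and 3748 CPM in shPTBP1, against 2675, 2973 and 3209 CPM in shControl. shPTBP1 1 and shControl 3 were almost equal, the groups overlapping in FPKM and by library totals but not in TMM-normalized CPM, and the log2 fold change was 0.24 (SE 0.10, adjusted p = 0.882 in edgeR).

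Of the other members of complex I, MT-ND4 and MT-ND4L had shControl 3 among the shPTBP1 libraries or above them, and MT-ND2 and MT-ND3 showed almost no difference. MT-ND4 had 15751, 12771 and 15487 CPM in shPTBP1 1, 2 and 3, against 10298, 9071 and 16142 CPM in shControl 1, 2 and 3. MT-ND4L, which shares a bicistronic mRNA with MT-ND4, had 2816, 2335 and 2783 CPM in shPTBP1, against 1834, 1823 and 2779 CPM in shControl. In both, shControl 1 and 2 were lower than all shPTBP1 libraries, shControl 3 was not, and the log2 fold changes were 0.31 and 0.30 (SE 0.22 and 0.18). MT-ND2 had 4301, 3382 and 4592 CPM in shPTBP1, against 4882, 3588 and 3983 CPM in shControl. MT-ND3 had 1266, 1063 and 958 CPM in shPTBP1, against 1282, 1109 and 1005 CPM in shControl. Those groups overlapped almost wholly, with log2 fold changes of -0.02 and -0.05 (SE 0.16 and 0.14).

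Complex III, the cytochrome bc1 complex, takes cytochrome b from MT-CYB. It had 3972, 3474 and 4036 CPM in shPTBP1 1, 2 and 3, against 3951, 3079 and 3749.8 CPM in shControl 1, 2 and 3, overlapping groups with a log2 fold change of 0.09 (SE 0.12). Complex IV, cytochrome c oxidase, has its catalytic core encoded by MT-CO1, MT-CO2 and MT-CO3. MT-CO1 had 19094, 17269.7 and 17966 CPM in shPTBP1, against 11049, 12995 and 18529 CPM in shControl. MT-CO2 had 11019, 8208 and 11227 CPM in shPTBP1, against 6687, 6018 and 11109 CPM in shControl. As for MT-ND4, shControl 3 stood with shPTBP1 and shControl 1 and 2 stood below, with log2 fold changes of 0.35 for each (SE 0.18 and 0.25). MT-CO3 had 9054, 8428 and 8694 CPM in shPTBP1, against 7749.6, 7004 and 8065 CPM in shControl. Every shPTBP1 library was higher, by a log2 fold change of 0.20 (SE 0.09, adjusted p = 0.895 in edgeR).

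ATP synthase, complex V, takes the proton-channel subunit a from MT-ATP6 and subunit 8 from MT-ATP8. MT-ATP6 had 2052, 1561 and 2336 CPM in shPTBP1 1, 2 and 3, against 1674, 1295 and 1762 CPM in shControl 1, 2 and 3. MT-ATP8 had 2507, 1954 and 2200.2 CPM in shPTBP1, against 2175, 1693 and 1679.8 CPM in shControl. Both overlapped between groups, with log2 fold changes of 0.33 and 0.26 (SE 0.18 and 0.14). Over the 13 mRNAs 11 had a positive log2 fold change, the range was -0.05 to 0.43, and the median was 0.30. Within the libraries numbered 1 and 2 the median over the mRNAs of the log2 ratio of mean CPM was 0.25, with 11 positive, and between the single libraries numbered 3 it was 0.11, with 10 positive.

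The make-up of the mRNA pool overlapped between groups for every mRNA. MT-CO1 made up 24.1% ± 1.31 of the summed mRNA counts in shPTBP1 and 22.7% ± 3.15 in shControl, and MT-ND4 made up 19.5% ± 0.576 in shPTBP1 and 18.8% ± 2.44 in shControl (SD, n = 3 each). MT-CO2 followed with 13.4% ± 1.17 in shPTBP1 and 12.5% ± 1.99 in shControl. MT-ND6 had the smallest share, 1.38% ± 0.125 in shPTBP1 and 1.33% ± 0.146 in shControl. These shares had higher means in shPTBP1, and those of MT-ND2, MT-ND3, MT-ND5, MT-CO3, MT-CYB and MT-ATP8 had lower ones. MT-ND2 made up 5.42% ± 0.426 in shPTBP1 and 6.82% ± 1.56 in shControl, with 8.42% and 6.71% in shControl 1 and 2, above every shPTBP1 library, and 5.31% in shControl 3. With 1 library left out in turn the difference in MT-CO1 share ran from -0.37 to 2.47 percentage points. Set against the 12 heavy-strand mRNAs, MT-ND6 stood at 1.32%, 1.55% and 1.34% in shPTBP1 1, 2 and 3, against 1.28%, 1.52% and 1.25% in shControl 1, 2 and 3. This ratio of the light-strand to the heavy-strand mRNAs differed by 0.06 on the log2 scale (exact permutation p = 0.5), and it followed the library number more than the group.

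The largest difference among the 37 genes was in MT-TI, the tRNA for isoleucine. It had 27.5, 29.4 and 26.4 CPM in shPTBP1 1, 2 and 3, against 8.51, 7.77 and 3.50 CPM in shControl 1, 2 and 3. The shPTBP1 libraries were close to each other and every shControl library was far below them. The deposited counts behind this were 2181, 2283 and 1898 in shPTBP1 and 582, 672 and 247 in shControl. The log2 fold change was 2.07, a 4.21-fold higher level in shPTBP1 (SE 0.33, adjusted p = 0.196 in edgeR), which placed MT-TI at rank 35 of 19393 genes by p. It did not pass the adjusted threshold there, while in DESeq2 its adjusted p was 2.16e-07 at a log2 fold change also of 2.07. With the 4 libraries numbered 1 and 2 alone it was 1.80 (adjusted p = 0.0478 in edgeR, where 0.319% of all genes passed), and without shControl 3 it was 1.77 (adjusted p = 0.0178 in edgeR, where 0.674% passed).

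The neighbours of MT-TI on the genome had smaller log2 fold changes. MT-TI set against MT-ND1, which ends at the base before it, stood at 0.921%, 1.03% and 0.729% in shPTBP1 1, 2 and 3, against 0.286%, 0.382% and 0.174% in shControl 1, 2 and 3. As a share of the counts of all 22 tRNAs it stood at 6.35%, 6.83% and 5.69% in shPTBP1, against 2.07%, 2.04% and 0.857% in shControl. Neither measure overlapped between the groups (log2 differences 1.73 and 2.03, exact permutation p = 0.1 for each, the smallest this design allows), and both were chosen after the values of MT-TI had been seen. MT-TQ, the glutamine tRNA that overlaps its end on the other strand, had 1.78, 1.74 and 2.75 CPM in shPTBP1, against 1.62, 1.48 and 0.623 CPM in shControl. The groups of MT-TQ did not overlap but were close for the libraries numbered 1 and 2, with a log2 fold change of 0.75 (SE 0.42, adjusted p = 0.952 in edgeR). MT-TM, the methionine tRNA next on the heavy-strand transcript, had 2.42, 2.47 and 3.64 CPM in shPTBP1, against 3.17, 2.52 and 1.03 CPM in shControl, which overlapped.

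**Figure D4:**
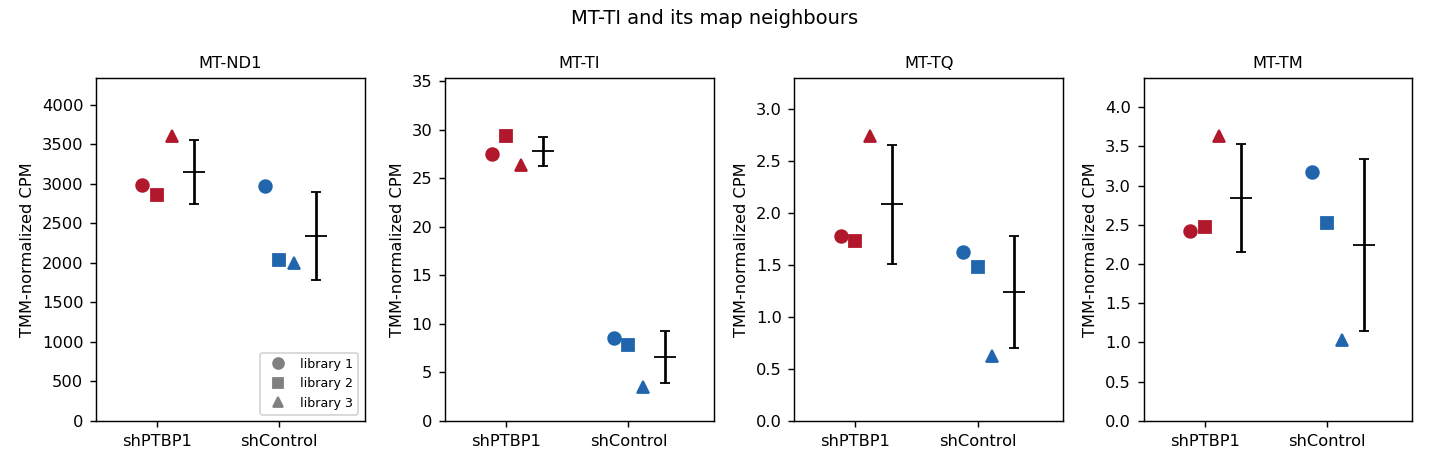
TMM-normalized CPM per library (linear axes from 0, a different scale in each panel) of MT-ND1, MT-TI, MT-TQ and MT-TM, adjacent on the genome, with the mean and SD of the 3 libraries of each group. MT-TI lies at 26.4 to 29.4 CPM in shPTBP1 and at 3.50 to 8.51 CPM in shControl, whereas shControl 1 lies within the shPTBP1 range in MT-ND1 and MT-TM.

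The remaining heavy-strand tRNAs shared an order of libraries that was not the order of the groups. In all 14 heavy-strand tRNAs shControl 3 was the lowest of the 6 libraries, against 20.2% of all genes tested. These tRNAs are cut from a shared long transcript, so they are not 14 independent observations. In 10 of the 14 all 3 shPTBP1 libraries lay between shControl 3 and the other two shControl libraries. The share of all genes in that order was not computed, so this count only describes these tRNAs. MT-TG, for glycine, had 8.81, 9.95 and 12.4 CPM in shPTBP1 1, 2 and 3, against 22.1, 17.7 and 6.35 CPM in shControl 1, 2 and 3. MT-TH, for histidine, had 5.80, 7.18 and 12.1 CPM in shPTBP1, against 16.7, 15.3 and 4.27 CPM in shControl. MT-TS2 and MT-TL2, for serine and leucine, directly follow MT-TH on the genome. MT-TS2 had 10.7, 12.8 and 18.2 CPM in shPTBP1, against 25.7, 23.5 and 7.74 CPM in shControl. MT-TL2 had 18.7, 21.6 and 27.6 CPM in shPTBP1, against 38.7, 35.6 and 12.5 CPM in shControl. MT-TR, for arginine, had 7.30, 8.98 and 11.8 CPM in shPTBP1, against 15.7, 13.9 and 5.31 CPM in shControl. In all 5 of these tRNAs the shControl libraries numbered 1 and 2 were highest and shControl 3 lowest. Their log2 fold changes lay between -0.56 and -0.31 with standard errors of 0.40 to 0.51.

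The other heavy-strand tRNAs were rarer, except MT-TL1, and kept the same lowest library. MT-TL1, a leucine tRNA, had 22.9, 30.5 and 37.9 CPM in shPTBP1 1, 2 and 3, against 43.2, 30.5 and 18.4 CPM in shControl 1, 2 and 3. MT-TV, the valine tRNA between the rRNA genes, had 1.55, 2.46 and 2.80 CPM in shPTBP1, against 4.86, 4.23 and 0.580 CPM in shControl. MT-TF, the phenylalanine tRNA that begins the heavy-strand map, had 1.75, 2.41 and 2.03 CPM in shPTBP1, against 3.44, 3.02 and 1.46 CPM in shControl. In each of these the shControl libraries spanned the whole range of the shPTBP1 libraries. MT-TK, for lysine, had 1.74, 1.60 and 1.68 CPM in shPTBP1, against 2.97, 2.31 and 1.00 CPM in shControl. MT-TD, for aspartate, had 2.04, 1.25 and 1.58 CPM in shPTBP1, against 2.40, 1.9 and 0.991 CPM in shControl. Both pairs of groups overlapped. MT-TW, for tryptophan, had 1.05, 0.862 and 1.04 CPM in shPTBP1, against 1.33, 1.34 and 0.637 CPM in shControl. MT-TT, for threonine, had 1.42, 1.97 and 2.29 CPM in shPTBP1, against 3.04, 2.89 and 0.934 CPM in shControl. These 7 tRNAs had log2 fold changes between -0.51 and -0.01, and MT-TM, given above, had 0.34 (SE 0.43).

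The heavy-strand tRNAs went opposite ways in the libraries numbered 1 and 2 and in those numbered 3. Between the libraries numbered 1 and 2 (2 of each group), 13 of the 13 heavy-strand tRNAs other than MT-TI had a lower mean CPM in shPTBP1, with a median log2 ratio of -0.81. Between the single libraries numbered 3, 13 of 13 were higher in shPTBP1 3 than in shControl 3, with a median log2 ratio of 1.14. The second of these ratios has no replicate, and its count restates that shControl 3 was the lowest library in all of these tRNAs. MT-TI was higher in shPTBP1 in both, by log2 ratios of 1.80 and 2.91. The 8 light-strand tRNAs also differed between these sets of libraries, with 7 of 8 higher in shPTBP1 and a median log2 ratio of 0.42 in the libraries numbered 1 and 2, and 3 of 8 higher with a median of -0.11 between the single libraries numbered 3. The median thus turned with the libraries used in the tRNAs of both strands. The direction of MT-TI did not, which follows from its groups not overlapping. Over all genes tested, the median log2 fold change was 0.0039 in the edgeR fit of the libraries numbered 1 and 2. Shares over all genes were not computed for the counts by direction given here.

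The 8 tRNAs of the light-strand transcript were ordered differently. MT-TC, MT-TN, MT-TY and MT-TA lie together on the genome and carry cysteine, asparagine, tyrosine and alanine. MT-TC had 102, 93.4 and 89.4 CPM in shPTBP1 1, 2 and 3, against 64.2, 65.7 and 112 CPM in shControl 1, 2 and 3. MT-TN had 80.9, 74.3 and 70.4 CPM in shPTBP1, against 50.9, 51.3 and 93.3 CPM in shControl. MT-TY had 60.2, 55.9 and 59.9 CPM in shPTBP1, against 46.0, 44.7 and 63.7 CPM in shControl. In these shControl 3, the lowest library of every heavy-strand tRNA, was the highest, and shControl 1 and 2 were the lowest. MT-TA, with 30.3, 28.8 and 28.4 CPM in shPTBP1 and 21.5, 20.2 and 35.7 CPM in shControl, had the same order. shControl 3 was thus the highest of the 6 libraries in 4 of 8 light-strand tRNAs, against 23.4% of all genes tested. The log2 fold changes of these 4 were 0.18 to 0.24 (SE 0.16 to 0.24).

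Outside that cluster MT-TE, the glutamate tRNA next to MT-ND6, showed the smallest p of the tRNAs after MT-TI. It had 25.0, 23.6 and 28.7 CPM in shPTBP1 1, 2 and 3, against 17.0, 17.8 and 19.2 CPM in shControl 1, 2 and 3. Both groups were tight and did not overlap, with a log2 fold change of 0.52 (SE 0.14, adjusted p = 0.604 in edgeR). MT-TP, for proline, had 17.7, 18.3 and 21.2 CPM in shPTBP1, against 18.0, 16.0 and 17.9 CPM in shControl. MT-TS1, the other serine tRNA, had 1.06, 0.734 and 0.944 CPM in shPTBP1, against 0.995, 0.971 and 1.03 CPM in shControl. Both overlapped between the groups, at log2 fold changes of 0.14 and -0.13 (SE 0.14 and 0.30).

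**Figure D5:**
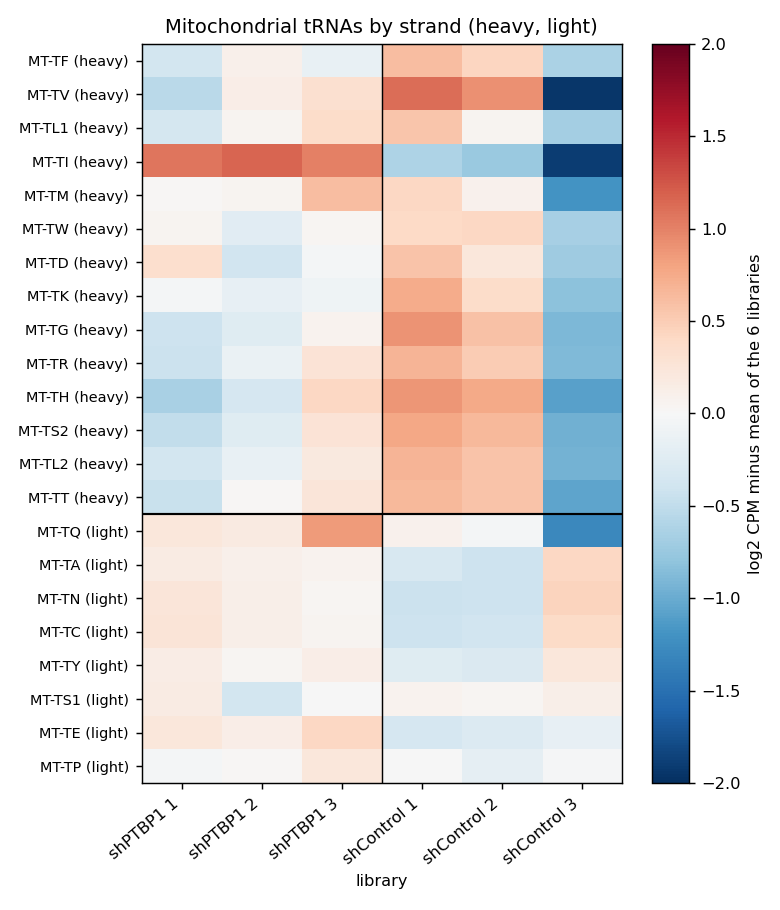
Heat map of the 22 mitochondrial tRNAs (rows, heavy-strand transcript above the line and light-strand below, each in map order) in the 6 libraries (columns, shPTBP1 left), coloured by log2 CPM minus the mean of the 6 libraries. shControl 3 is lowest in all 14 heavy-strand rows and highest in 4 of the 8 light-strand rows, and MT-TI is the heavy-strand row in which all 3 shPTBP1 libraries stand above all 3 shControl libraries.

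Summed over the strands, the 13 heavy-strand tRNAs other than MT-TI stood to the 8 light-strand tRNAs at 0.270, 0.351 and 0.448 in shPTBP1 1, 2 and 3, against 0.833, 0.709 and 0.178 in shControl 1, 2 and 3. The shControl libraries held both the highest and the lowest ratio, and the groups did not differ beyond that spread (log2 difference -0.44, exact permutation p = 0.6). This ratio was chosen after the tRNA values had been seen. RNAs without a poly(A) tail should be removed by oligo(dT) selection. The 5 listed summed to 29.3, 49.9 and 19.8 CPM in shPTBP1, against 26.0, 24.4 and 25.4 CPM in shControl. The highest sum was that of shPTBP1 2, and 3 of the 5 RNAs reached 1 CPM in any library. Their part in the tRNA values was not tested. tRNA genes are shorter than typical sequenced fragments, and the counts do not tell a mature tRNA from a longer transcript that still contains it.

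Nuclear copies of mitochondrial DNA bear on some mRNAs. The table holds 407 such copies by name, of which 6 had at least 1000 counts in a library, all 6 on chromosome 1. MTATP6P1 (chr1:633696-634376) is 98.5% identical to MT-ATP6 over 681 aligned bases and had 69.7% to 75.0% of the counts of MT-ATP6 in shPTBP1, against 71.1% to 80.7% in shControl. MTND2P28 held 12.9% to 14.8% of the counts of MT-ND2 in shPTBP1 and 11.4% to 15.7% in shControl, and MTCO1P12 held 7.55% to 8.20% of those of MT-CO1 in shPTBP1 and 6.35% to 8.82% in shControl. MTCO2P12, MTCO3P12 and MTND1P23 held under 1% of those of their genes in every library. Reads of such copies and of the mitochondrial genes can be exchanged in alignment, so the level of MT-ATP6 above all is uncertain. With the counts of the 6 copies added to their genes, 0 of the 37 members passed the adjusted threshold in edgeR, as before. Of all genes tested 0.0309% passed. Only mRNAs with such copies gained counts, and MT-TI, nearest to the threshold, has none among the 6. This result therefore does not test the exchange of reads.

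Nuclear genes that make, process and use mitochondrial RNA showed no call in either direction in edgeR (background 0.0206% higher and 0.0103% lower). They showed none in DESeq2 (1.00% of all genes tested) or in limma on log2(FPKM + 1) (0.0749% of all genes tested). So few genes were called over the whole table that lists without a call say little about their genes. Of 18 genes of mitochondrial DNA transcription and replication, 7 had a positive log2 fold change, against 48.0% of all genes tested. Their median was -0.08, against -0.01 over all genes. The smallest p was that of TWNK, the mitochondrial DNA helicase, with 48.1, 29.0 and 36.0 CPM in shPTBP1 1, 2 and 3, against 72.0, 65.2 and 43.8 CPM in shControl 1, 2 and 3 (log2 fold change -0.68, standard error 0.25, adjusted p = 0.822 in edgeR). TFB2M, the initiation factor of the mitochondrial RNA polymerase, stood at -0.33, TEFM, its elongation factor, at -0.21 and MGME1, a mitochondrial exonuclease, at -0.24 on the log2 scale, all with an unadjusted p above 0.05. Of 33 genes of mitochondrial RNA processing and decay, 9 had a positive log2 fold change (median -0.10), against 48.0% of all genes tested. Of the 33, 0 had an unadjusted p under 0.05 in edgeR, against 5.69% of all genes tested. Those with the smallest p were TRMT61B, a tRNA and rRNA methyltransferase, at -0.26, TRIT1, a tRNA isopentenyltransferase, at -0.54, PTCD2 at 0.23 and REXO2, an oligoribonuclease, at -0.32.

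Of 90 genes of the mitochondrial ribosome and translation, 23 had a positive log2 fold change, against 48.0% of all genes tested, and the median was -0.10. MRPS33, a protein of the small subunit, had 23.4, 21.3 and 24.5 CPM in shPTBP1 1, 2 and 3, against 34.6, 27.7 and 36.3 CPM in shControl 1, 2 and 3. It was lower in every shPTBP1 library, as were others of the 90 (5.46% of all genes tested). Some of the 90 were higher in every shPTBP1 library (6.49% of all genes tested). In edgeR 1 of the 90 had an unadjusted p under 0.05, MRPS33, against 5.69% of all genes tested (log2 fold change -0.51, standard error 0.15, adjusted p = 0.655 in edgeR). MTRF1L, a release factor, stood at -0.32, GADD45GIP1, a protein of the large subunit, at -0.23 and C12orf65 at 0.60. Of 80 nuclear-encoded respiratory subunits 77 were tested, 30 with a positive log2 fold change (48.0% of all genes tested) and a median of -0.02. NDUFB1, an accessory subunit of complex I, stood at 0.34 and ATP5ME, a subunit of ATP synthase, at -0.25, and these 2 of the 77 had an unadjusted p under 0.05 in edgeR, against 5.69% of all genes tested. NDUFA12 and NDUFS4, both of complex I, stood at 0.58 and -0.26. The mitochondrially encoded mRNAs thus had a median of 0.30 and the nuclear-encoded respiratory subunits one of -0.02, which describes these lists and was not tested as a difference.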

How the data were processed

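RNA-seq libraries, 3 shPTBP1 and 3 shControl by title, had been made from oligo(dT)-selected RNA. The authors deposited 1 table of FPKM and estimated counts per gene, and their processing notes name cutadapt 1.9, FastQC, HISAT2 2.2.1, StringTie and hg38, without settings. The deposited counts are whole, but 32.5% to 34.4% of those from 1 to 40 per library were multiples of 4, so they were treated as estimated counts, used as they stand, which leaves the number of fragments unknown. The Wilson interval was computed on counts divided by 4.

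The main test was edgeR's quasi-likelihood F test (edgeR 4.0.16 under R 4.3.3) after TMM scaling and its filter on low counts, with Benjamini-Hochberg adjustment over the 19393 genes kept and a threshold of 0.05. The standard error is the absolute log2 fold change over the square root of F. CPM are counts per 1e6, TMM-normalized for members and lists, and of the library total for marker genes. Sums per library were compared by an exact permutation test over 20 splits, two-sided. Alternatives were DESeq2 1.42.0, limma 3.58.1 on log2(FPKM + 1), for genes averaging 1 FPKM or more and for all genes, and on log2(FPKM + 0.1), library totals, scaling on nuclear genes, no filter on counts, counts divided by 4, a replicate block, number 3 as a covariate, numbers 1 and 2 only, and leaving out each library. Adding nuclear copies was chosen after seeing the data. Simulated data with known changes were used to test the edgeR script. Sequences and coordinates came from GENCODE release 29, and copies were aligned with Biopython 1.88. Tables and figures used matplotlib 3.10.9, scipy 1.17.1, numpy 2.4.6 and pandas 2.3.3 in Python 3.11.15.

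All 37 members are named with their values. Other genes named are PTBP1, HBB, up to 4 genes of each list with the smallest p, and nuclear copies with at least 1000 counts in a library. Members, lists and markers were chosen with earlier results of these data known. Splicing was not analysed here.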

Additional observations from a re-analysis of the deposited data

How the results depend on the processing

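Of the 37 genes, 29 kept the sign of their log2 fold change under all 18 alternatives. Scaling moved the median of all genes by under 0.1 on the log2 scale. Genes called over the whole table, 6 in edgeR, were 194 in DESeq2, 63 in the libraries numbered 1 and 2, 3 with number 3 as a covariate, 1 in limma without a filter, and 2 to 136 when 1 library was left out, 136 being without shControl 3. The MT- genes called, 0 in edgeR, were 1 in DESeq2 and 1 in the libraries numbered 1 and 2 (MT-TI in both), and 0 to 2 when 1 library was left out, with 2 without shControl 3 (MT-TI and MT-RNR2). The log2 fold change of MT-TI was 1.77 to 2.30 over these omissions.

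The log2 fold change of MT-TL1, -0.01, was 0.013 in limma with log2(FPKM + 1), filtered or not, 0.014 with log2(FPKM + 0.1), 0.039 with the replicate block and 0.026 with number 3 as a covariate. That of MT-TM, 0.34, was -0.22 in the libraries numbered 1 and 2. Leaving out 1 library gave -0.28 to 0.31 for MT-TL1, -0.0023 to 0.67 for MT-TM, -0.12 to 0.11 for MT-ND2, -0.25 to 0.0030 for MT-TS1, -0.40 to 0.17 for MT-TD, -0.66 to 0.0088 for MT-TK, -0.17 to 0.051 for MT-ND3, -0.0084 to 0.16 for MT-CYB and -0.015 to 0.15 for MT-ND6 relative to the heavy-strand mRNAs. The cause of these changes was not tested.

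With the replicate number as a block, edgeR called 0 genes in the whole table (987 at an unadjusted p under 0.05) and 0 MT- genes, with an adjusted p of 0.594 for MT-TI. Deviations of libraries from their group mean correlated at -0.009, 0.158 and 0.083 for equal numbers 1, 2 and 3. Libraries with unequal numbers correlated at -0.139 to 0.0472, so the values for numbers 2 and 3 were the highest. Such correlations cannot show whether equal numbers mark pairs, and the main fit did not take them as pairs.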
